A study of Saccharomyces cerevisiae with 4 samples.

Results

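The 40 genes described here build and guard the cell wall of Saccharomyces cerevisiae. They were chosen by name, as a set of 11 glucan genes, 5 chitin genes, 19 genes of wall mannoproteins and yapsin proteases and 5 genes of the kinase cascade that responds to wall stress. The choice was made with earlier results of these data known. All 40 were measured, each by 1 probe set, among 5449 yeast genes on the Affymetrix Yeast Genome array. Total RNA came from 2 cultures of the Sen1ΔN strain and 2 cultures of a wild type, with 1 array per culture from independent experiments. Sen1ΔN is a strain whose Sen1 protein, a nuclear helicase of transcription termination, lacks part of its N terminus. Its label gives MATα, the sen1 allele as leu2-_delta_1::sen1-2, and the alleles trp1-_delta_1, lys2-801, ura3-52, ade2-101 and his3-200. The wild type is BY4741, MATa with met15_delta_0, ura3_delta_0, leu2_delta_0 and his3_delta_1. Both strains grew without treatment in synthetic complete medium with 2% glucose at 24 °C, were started at an OD600 of 0.4 and were harvested in exponential phase at an OD600 of 1.5. The strains differ in mating type and in several markers besides SEN1, so SEN1 and the rest of the strain background cannot be told apart in any value below. Whether each strain is 1 clone is not stated, and nothing used here shows whether the probed sequences are identical in the strains.

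The yeast wall is a mesh of beta-glucan that carries the load, with a small amount of chitin at the bud neck and septum and an outer coat of mannoproteins. Most of the coat proteins are tied to the glucan through a trimmed GPI anchor, a lipid tail added at their C terminus, and the PIR proteins are tied to it directly. When the wall is stretched or damaged, sensors in the plasma membrane act through the GTPase Rho1 on protein kinase C, which drives the kinase chain Bck1, Mkk1 or Mkk2 and Slt2. Slt2 then acts on the transcription factor Rlm1, and many wall genes are known as outputs of that route.

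Values are log2 signals as deposited, and a difference is Sen1ΔN minus wild type, so that -1 is a 2-fold lower and 1 a 2-fold higher signal. A gene was called, and is said to have fallen or risen, at an adjusted p under 0.05 in limma, a linear model with moderated variances, fitted on all 5449 genes. SEN1 itself had 12.01 and 12.17 log2 on the Sen1ΔN arrays and 10.66 and 10.57 on the wild-type arrays. Its label-given truncation cannot be checked from this value, since the place of the probe set in the gene is not known here. The mating types of the labels were borne out, as all 7 MATa marker genes measured were called lower and all 5 MATα marker genes higher in Sen1ΔN. Of 7 genes of meiotic diploid cells, 3 were called higher and 4 lower. The replicate arrays of a strain differed by a median of 0.11 log2 in Sen1ΔN and 0.07 in the wild type over all genes, against 0.46 between the strain means. The control transcripts also showed a shift along their length. In 6 of 6 yeast controls with a 5′ signal above background on every array, the 3′ minus 5′ difference was larger on the Sen1ΔN arrays, by 1.24 to 4.03 log2 with a median of 2.38. That shift follows strain, and its part in the values below was not tested.

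Most of the wall genes were lower in Sen1ΔN. Of the 25 falls, 22 were in the glucan and mannoprotein genes, which make up 11 and 19 of the 40 genes. Of the 40 genes 32 were called in either direction, where 69.7% of all genes were. The calls split into 25 lower (62.5%) and 7 higher (17.5%), where 34.4% of all genes were called lower and 35.3% higher. The largest falls were in the yapsin gene YPS3 (7.77-fold), the alternative glucan synthase gene GSC2 (3.87-fold) and TIR2 (3.79-fold), a mannoprotein gene. The largest rises were in UTR2 (2.26-fold), which encodes an enzyme that joins chitin to glucan, and TIR4 (1.98-fold), a paralog and direct neighbour of TIR2. The median difference of the 40 genes was -0.39 log2, against 0.01 for all genes. Falls of at least 2-fold numbered 8 of 40, where 11.3% of all genes fell that far, and rises of at least 2-fold numbered 1, where 8.63% of all genes rose that far. Both Sen1ΔN arrays lay below both wild-type arrays for 27 of the 40 genes and above them for 9, where the shares over all genes were 42.9% and 44.3%. In RNA of a whole culture, fewer cells in a state that uses a gene and less RNA per cell cannot be told apart.

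**Figure D1:**
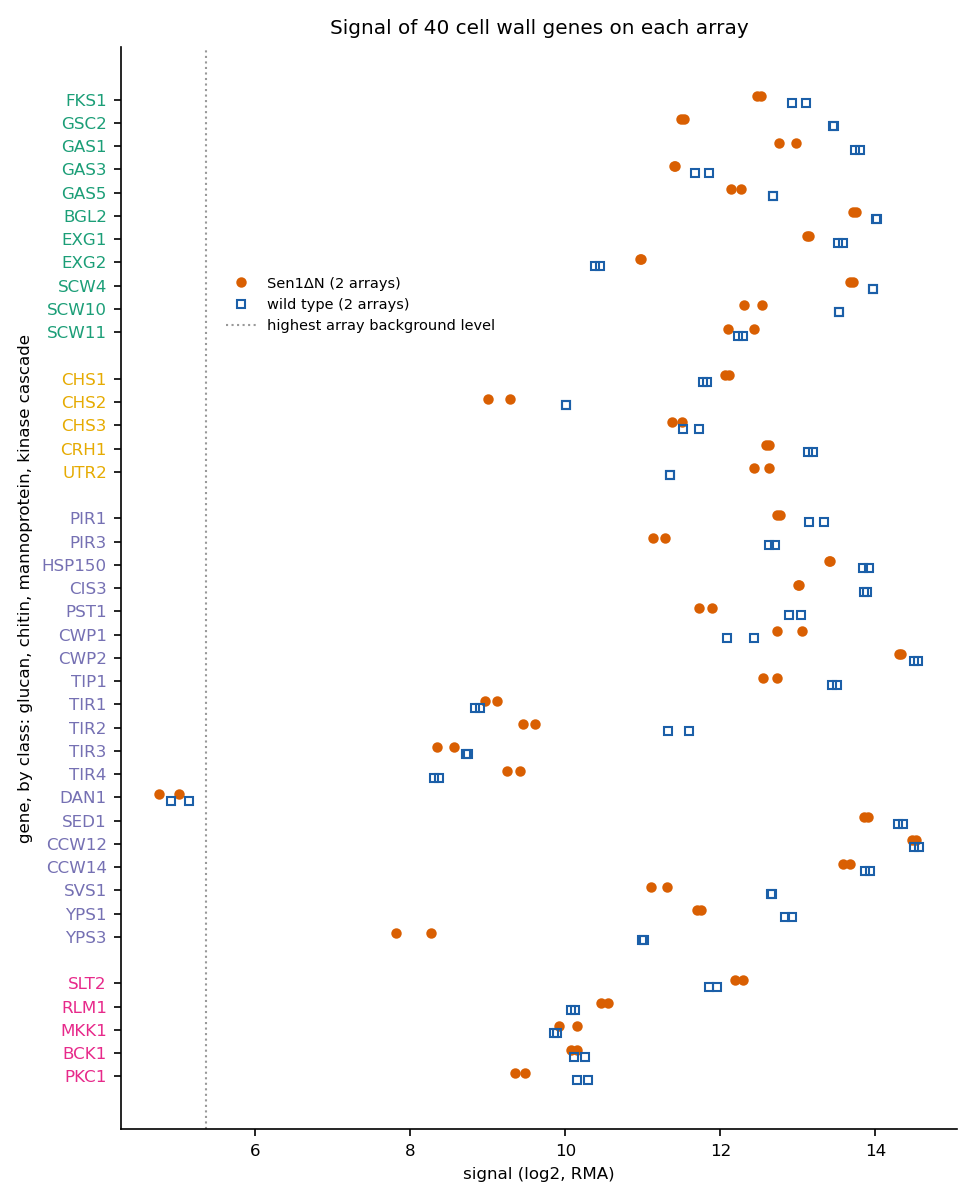
Signal of each of the 40 cell wall genes on each array (x axis, log2), with genes down the page in their 4 classes. Filled circles are the 2 Sen1ΔN arrays and open squares the 2 wild-type arrays. The circles lie left of the squares for 27 genes, and DAN1 alone lies left of the dotted background level.

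Of the 11 glucan genes 9 were called lower (81.8%) and 1 higher (9.09%), where 34.4% and 35.3% of all genes were. Their median difference was -0.42 log2. The 9 lower calls became 6 without wild type replicate 2 and also 6 with a trend on gene length removed. Glucan synthase, the plasma membrane enzyme that spins the glucan chains, has alternative catalytic subunits. FKS1, the subunit gene used mainly in growth on glucose, had 12.52 and 12.48 log2 on the Sen1ΔN arrays and 12.93 and 13.10 on the wild-type arrays. It fell by 0.52 (SE 0.09, limma adjusted p = 0.00505), and a linear model without moderation of the variances did not call it (adjusted p = 0.0603). GSC2, also called FKS2, the subunit gene known for induction under wall stress, through calcineurin and in poor carbon sources, had 11.53 and 11.50 log2 on the Sen1ΔN arrays and 13.47 and 13.46 on the wild-type arrays. The replicate arrays were thus within hundredths of each other in both strains, and GSC2 fell by 1.95 (SE 0.06, limma adjusted p = 8.18e-05). Whether the fall of GSC2 exceeds that of FKS1 was not tested.

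The GAS genes encode GPI-anchored enzymes that cut glucan chains and join them into longer ones. GAS1, the main one in vegetative cells, had 12.97 and 12.76 log2 on the Sen1ΔN arrays and 13.74 and 13.81 on the wild-type arrays, a fall of 0.91 (SE 0.10, limma adjusted p = 0.00113). GAS5 had 12.27 and 12.13 log2 on the Sen1ΔN arrays and 12.67 and 12.68 on the wild-type arrays, and fell by 0.48 (SE 0.08). GAS3 had 11.42 and 11.40 log2 on the Sen1ΔN arrays and 11.68 and 11.85 on the wild-type arrays. All 3 thus lay lower on both Sen1ΔN arrays than on either wild-type array. The fall of GAS3 was 0.36 (SE 0.08), and GAS3 was no longer called in the unmoderated fit (adjusted p = 0.0916), without wild type replicate 2 (limma adjusted p = 0.107) or with the length trend removed (limma adjusted p = 0.0917).

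Among the enzymes of the glucanase families, secreted proteins that trim or remodel glucan, the values went from a fall of more than 2-fold to a rise. SCW10 had 12.54 and 12.31 log2 on the Sen1ΔN arrays and 13.53 and 13.54 on the wild-type arrays, and fell by 1.11 (SE 0.10, limma adjusted p = 0.000651). Its paralog SCW4 had 13.71 and 13.67 log2 on the Sen1ΔN arrays and 13.98 and 13.97 on the wild-type arrays. BGL2, a wall glucanosyltransferase gene, had 13.71 and 13.76 log2 on the Sen1ΔN arrays and 14.02 and 14.01 on the wild-type arrays. SCW4 and BGL2 fell by the same 0.28 (SE 0.06 each). Leaving out either wild-type array ended both calls, with limma adjusted p-values between 0.0894 and 0.104. Removing the length trend ended them too, at differences of -0.07 for SCW4 and -0.11 for BGL2 (limma adjusted p = 0.364 and 0.18). EXG1, the gene of the main exoglucanase, had 13.15 and 13.11 log2 on the Sen1ΔN arrays and 13.52 and 13.58 on the wild-type arrays, a fall of 0.42 (SE 0.07). In contrast, EXG2, which encodes a GPI-anchored exoglucanase, had 10.97 and 10.98 log2 on the Sen1ΔN arrays and 10.45 and 10.38 on the wild-type arrays. It rose by 0.56 (SE 0.07, limma adjusted p = 0.00171) and was the only glucan gene of the set called higher. SCW11, a further gene of the glucanase families, had 12.43 and 12.10 log2 on the Sen1ΔN arrays and 12.22 and 12.29 on the wild-type arrays. The Sen1ΔN arrays spanned those of the wild type, and the 95% interval of the difference went from -0.31 to 0.34.

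Of the 5 chitin genes 2 were called lower and 2 higher, 40% each, near the 34.4% and 35.3% of all genes. The chitin synthases divide the work, with Chs2 making the primary septum, Chs3 the ring at the bud neck and the chitin of the lateral wall, and Chs1 repairing the wall after cell separation. CHS2 had 9.29 and 8.999 log2 on the Sen1ΔN arrays and 10.01 and 10.01 on the wild-type arrays, and fell by 0.87 (SE 0.11, limma adjusted p = 0.00216). The unmoderated fit did not call it (adjusted p = 0.0553). CHS1 had 12.07 and 12.11 log2 on the Sen1ΔN arrays and 11.83 and 11.78 on the wild-type arrays, and rose by 0.29 (SE 0.07, limma adjusted p = 0.015). That call was lost without wild type replicate 1 or wild type replicate 2, at limma adjusted p-values of up to 0.115. CHS3 had 11.51 and 11.37 log2 on the Sen1ΔN arrays and 11.73 and 11.52 on the wild-type arrays. Its arrays nearly touched, it was not called (limma adjusted p = 0.156), and the 95% interval of its difference went from -0.45 to 0.08.

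The crosslinking enzymes, which transfer chitin onto glucan, moved in opposite directions. UTR2, also called CRH2, had 12.63 and 12.43 log2 on the Sen1ΔN arrays and 11.36 and 11.35 on the wild-type arrays, the largest rise among the 40 genes at 1.18 (SE 0.09, limma adjusted p = 0.000443). CRH1 had 12.59 and 12.63 log2 on the Sen1ΔN arrays and 13.19 and 13.13 on the wild-type arrays, and fell by 0.55 (SE 0.07, limma adjusted p = 0.00181). Neither gene's arrays overlapped between the strains.

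**Figure D2:**
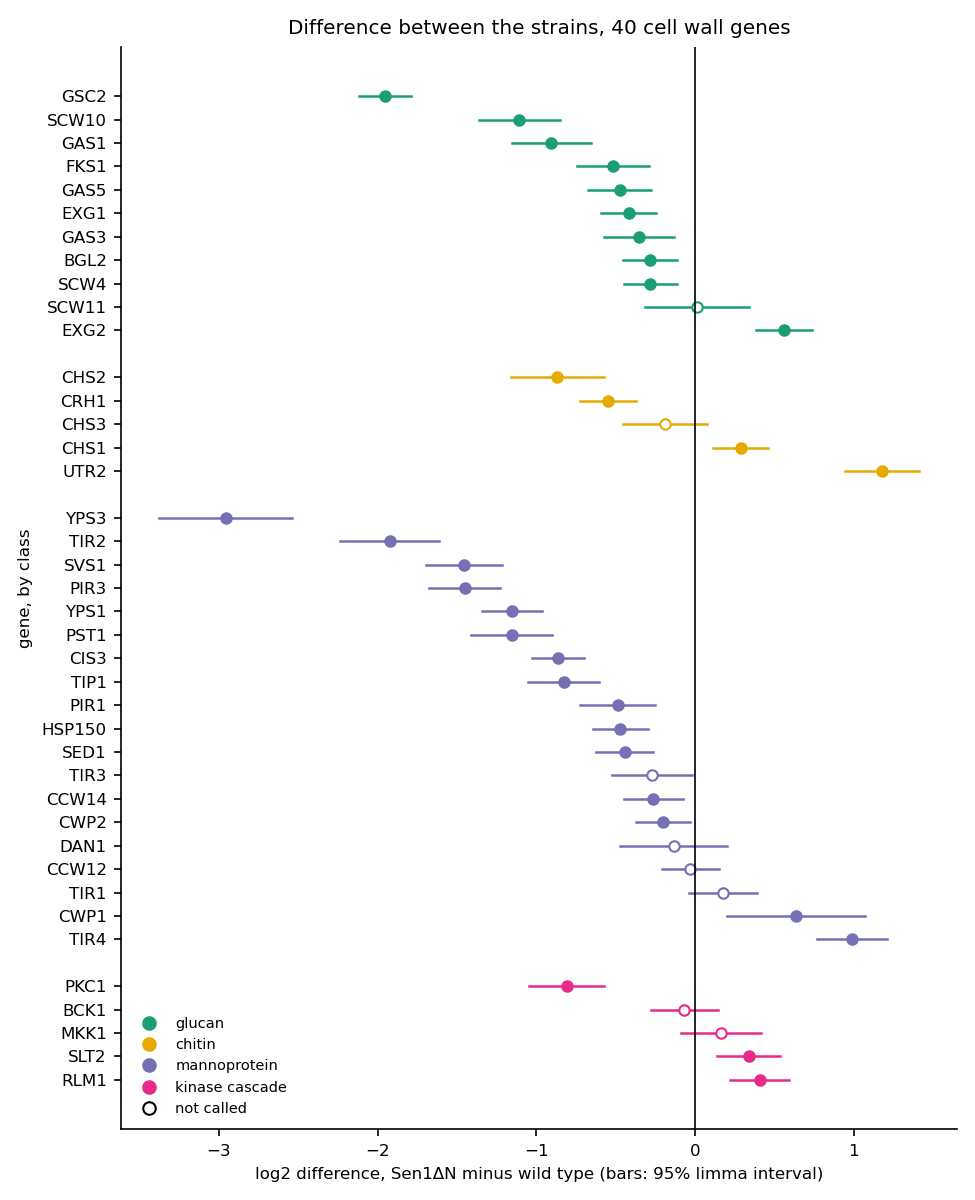
Difference between the strains for each gene (x axis, log2, Sen1ΔN minus wild type), by class and sorted within it, with 95% intervals from limma as bars. Filled points are called genes and open points are genes not called. YPS3, GSC2 and TIR2 lie farthest to the left, and UTR2 and TIR4 farthest to the right.

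Of the 19 genes for mannoproteins and yapsins, 13 were called lower (68.4%) and 2 higher (10.5%), where 34.4% and 35.3% of all genes were. Their median difference was -0.47 log2. All 4 PIR genes fell. Their proteins carry internal repeats and attach to glucan without an anchor. PIR3 had 11.13 and 11.29 log2 on the Sen1ΔN arrays and 12.63 and 12.70 on the wild-type arrays, a fall of 1.45 (SE 0.09, limma adjusted p = 0.000243). CIS3 had 13.01 log2 on each Sen1ΔN array and 13.89 and 13.86 on the wild-type arrays, and fell by 0.86 (SE 0.06). HSP150 had 13.41 and 13.40 log2 on the Sen1ΔN arrays and 13.84 and 13.91 on the wild-type arrays, and fell by 0.47 (SE 0.07). PIR1 had 12.73 and 12.78 log2 on the Sen1ΔN arrays and 13.14 and 13.34 on the wild-type arrays, and fell by 0.49 (SE 0.09), with no call in the unmoderated fit (adjusted p = 0.0726). No PIR gene had overlapping arrays. The PIR coding sequences resemble each other, and how far their probe sets tell them apart was not tested.

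The yapsins are GPI-anchored aspartyl proteases that process wall proteins, and both yapsin genes of the set, YPS1 and YPS3, fell at least 2-fold. YPS3 had 7.81 and 8.27 log2 on the Sen1ΔN arrays and 11.01 and 10.99 on the wild-type arrays. It fell by 2.96 (SE 0.16, limma adjusted p = 0.00021), the largest difference of any of the 40 genes, though the Sen1ΔN arrays also lay farther apart than for any other of them, by 0.45. YPS1 had 11.70 and 11.76 log2 on the Sen1ΔN arrays and 12.93 and 12.84 on the wild-type arrays, and fell by 1.16 (SE 0.07, limma adjusted p = 0.000282). None of the other 4 yapsin genes measured was called lower. MKC7, the paralog of YPS1, rose by 1.16 (SE 0.11) and YPS6 rose by 0.84 (SE 0.13, limma adjusted p = 0.00423), YPS7 was not called at a difference of 0.13, and YPS5 lay below background on every array. YPS5, YPS6 and YPS7 are named here after their values were seen.

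Of the 7 wall protein genes outside the PIR, yapsin and TIP1 groups, 5 were called lower (71.4%) and 1 higher (14.3%). These shares stand beside 34.4% and 35.3% of all genes. SVS1, named for its role in resistance to vanadate, had 11.31 and 11.10 log2 on the Sen1ΔN arrays and 12.65 and 12.67 on the wild-type arrays, and fell by 1.45 (SE 0.09, limma adjusted p = 0.000289). PST1, widely used as a reporter of wall damage, had 11.72 and 11.89 log2 on the Sen1ΔN arrays and 13.04 and 12.88 on the wild-type arrays, and fell by 1.16 (SE 0.10, limma adjusted p = 0.000584). SED1, a structural wall protein linked to stress and stationary phase, had 13.90 and 13.86 log2 on the Sen1ΔN arrays and 14.29 and 14.36 on the wild-type arrays, a fall of 0.44 (SE 0.07). These 3 genes were called under every alternative tried.

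CWP2, an abundant coat protein, had 14.30 and 14.34 log2 on the Sen1ΔN arrays and 14.50 and 14.54 on the wild-type arrays, a fall of 0.20 (SE 0.07, limma adjusted p = 0.042). CCW14 had 13.67 and 13.59 log2 on the Sen1ΔN arrays and 13.86 and 13.93 on the wild-type arrays, a fall of 0.26 (SE 0.07, limma adjusted p = 0.025). Each of these calls was lost under 6 of the 13 alternatives, including the omission of either wild-type array. CCW12, whose product is a major coat protein, had 14.48 and 14.52 log2 on the Sen1ΔN arrays and 14.49 and 14.56 on the wild-type arrays. Its arrays overlapped, the 95% interval went from -0.21 to 0.15, and it lay close to the top of the scale, where differences may be compressed: the highest value of any probe set was 14.57 on Sen1ΔN replicate 2 and 14.74 on each wild-type array. CWP1, whose protein is known from the birth scar, had 12.74 and 13.05 log2 on the Sen1ΔN arrays and 12.44 and 12.08 on the wild-type arrays. It rose by 0.63 (SE 0.17, limma adjusted p = 0.0221), with the widest spread between the wild-type arrays of all 40 genes. CWP1 was not called in the unmoderated fit (adjusted p = 0.158), with replicate number as a block (limma adjusted p = 0.0751) or without wild type replicate 2 (limma adjusted p = 0.0774).

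The TIP1 family holds serine-rich wall proteins known for their induction by cold or by lack of oxygen, and its members did not move together. Of 6 genes, 2 fell (33.3%), 1 rose (16.7%) and 3 were not called, where 34.4% of all genes fell and 35.3% rose. TIR2 had 9.61 and 9.46 log2 on the Sen1ΔN arrays and 11.32 and 11.59 on the wild-type arrays, and fell by 1.92 (SE 0.12, limma adjusted p = 0.00028). TIR4 had 9.41 and 9.25 log2 on the Sen1ΔN arrays and 8.31 and 8.38 on the wild-type arrays, and rose by 0.99 (SE 0.08, limma adjusted p = 0.000607). TIP1, the founding member, had 12.73 and 12.56 log2 on the Sen1ΔN arrays and 13.44 and 13.50 on the wild-type arrays, and fell by 0.83 (SE 0.09). None of these 3 genes had overlapping arrays. TIR1 had 9.12 and 8.96 log2 on the Sen1ΔN arrays and 8.84 and 8.90 on the wild-type arrays, with a 95% interval of -0.04 to 0.39. TIR3 had 8.57 and 8.34 log2 on the Sen1ΔN arrays and 8.72 and 8.74 on the wild-type arrays, and missed the threshold (limma adjusted p = 0.0545). It passed without Sen1ΔN replicate 1 (limma adjusted p = 0.00868), with the arrays centred on their medians and with the trend on signal level removed. DAN1, an anaerobic gene, had 4.76 and 5.02 log2 on the Sen1ΔN arrays and 4.91 and 5.14 on the wild-type arrays. These values lay below the background level of 5.23 to 5.36 on every array, so no fold is given for it.

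Of the 5 genes of the kinase cascade 1 was called lower and 2 higher, with a median difference of 0.16 log2. These shares of 20% and 40% stand beside 34.4% and 35.3% of all genes, and a difference between the cascade and the other classes was not tested. PKC1, the protein kinase C at its head, had 9.35 and 9.48 log2 on the Sen1ΔN arrays and 10.15 and 10.30 on the wild-type arrays, and fell by 0.81 (SE 0.09, limma adjusted p = 0.00134). BCK1, the next kinase, had 10.08 and 10.15 log2 on the Sen1ΔN arrays and 10.25 and 10.11 on the wild-type arrays, with overlapping arrays and a 95% interval of -0.28 to 0.15. MKK1, one of the paralogous kinases below it, had 10.15 and 9.92 log2 on the Sen1ΔN arrays and 9.86 and 9.89 on the wild-type arrays, with a 95% interval of -0.09 to 0.41. The wild-type arrays of MKK1 lay close together below both Sen1ΔN arrays, and without Sen1ΔN replicate 2 the gene was called higher. SLT2, the MAP kinase, had 12.20 and 12.29 log2 on the Sen1ΔN arrays and 11.95 and 11.86 on the wild-type arrays. It rose by 0.34 (SE 0.08, limma adjusted p = 0.0139), but was not called in the unmoderated fit (adjusted p = 0.0694) or without wild type replicate 2 (limma adjusted p = 0.1005). RLM1, the transcription factor, had 10.46 and 10.55 log2 on the Sen1ΔN arrays and 10.07 and 10.13 on the wild-type arrays, and rose by 0.41 (SE 0.07, limma adjusted p = 0.00581). These are transcript signals and say nothing of the activity of the kinases.

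Several of the 40 genes lie side by side, by the gene order of the R64 reference assembly. They spread over 13 chromosomes, and 5 sets of direct neighbours were found. In 3 of these both genes fell, namely YPS1 with YPS3, PIR1 with PIR3, and HSP150 with CIS3. In the other two the neighbours moved apart. CWP1 rose by 0.63 beside CWP2, which fell by 0.20, and TIR4 rose by 0.99 beside TIR2, which fell by 1.92. SCW10 and GAS1, with differences of -1.11 and -0.91, are separated by 1 gene, the glucan synthase homolog FKS3. SCW4 and BGL2, both with a difference of -0.28, are separated by 2 genes.

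**Figure D3:**
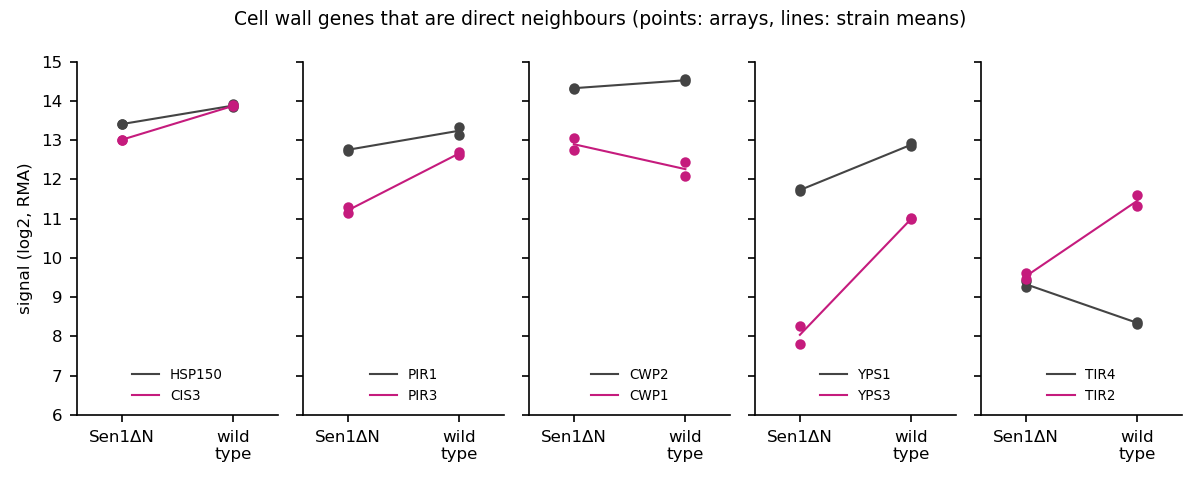
Signal (y axis, log2) of the 5 sets of directly neighbouring cell wall genes in Sen1ΔN (left of each panel) and wild type (right), with points for the arrays and lines through the strain means. Both lines climb toward the wild type for HSP150 with CIS3, PIR1 with PIR3 and YPS1 with YPS3. For CWP2 with CWP1 and TIR4 with TIR2 the lines run in opposite directions.

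The genes around the 40 were described through 8 additional lists, with 148 of 153 genes measured, of which 67 were called lower and 40 higher. Like the 40 genes, the lists were chosen with earlier results of these data known. Counts of each list are to be read beside the 34.4% of all genes called lower and the 35.3% called higher. Other genes of glucan synthesis and remodelling fell in 18 of 26 cases (69.2%) and rose in 3 (11.5%), with a median difference of -0.49 log2. The unmoderated fit called 7 of them lower and 1 higher. SIM1 and NCA3, of the SUN family of wall proteins, fell by 2.17 and 1.59 (SE 0.09 each). KRE1 and SKN1, of the branch that makes the more highly branched glucan, fell by 1.38 and 1.19 (SE 0.11 and 0.19), and SKN1 was not called in the unmoderated fit (adjusted p = 0.0821). Genes of protein mannosylation, which supplies the sugar coat of the mannoproteins, fell in 21 of 31 cases (67.7%) and rose in 4 (12.9%), with a median of -0.51, and 7 rose with the length trend removed. The mannosyltransferase genes PMT3, PMT5 and PMT2 fell by 1.92, 1.58 and 1.54 (SE 0.07, 0.11 and 0.08). PMI40, whose enzyme makes the precursor of the mannose donor, fell by 1.75 (SE 0.06).

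Of 20 other wall protein and yapsin genes measured, 8 were called lower (40%) and 6 higher (30%), near the shares of all genes. The unmoderated fit called 2 of them higher. PRY1, which encodes a secreted sterol-binding protein, had 9.06 and 8.87 log2 on the Sen1ΔN arrays and 12.88 and 13.00 on the wild-type arrays, and fell by 3.97 (SE 0.10, limma adjusted p = 4.45e-05). Its homolog PRY2 and the wall protein gene TOS6 fell by 1.45 and 1.42 (SE 0.06 and 0.08). The other chitin genes were called lower in 8 of 18 cases (44.4%) and higher in 5 (27.8%), and the unmoderated fit called 5 lower and 2 higher. Among them CDA1, a chitin deacetylase gene of the spore wall, fell by 2.45 (SE 0.07) and CRR1, a sporulation homolog of CRH1, fell by 1.87 (SE 0.07). On the Sen1ΔN arrays CDA1 had 6.19 and 6.26 log2 and CRR1 had 5.86 and 5.76. These values lay near the background levels of 5.36 and 5.35 on those arrays. SKT5, whose product activates Chs3, rose by 0.97 (SE 0.11), and the chitinase gene CTS2 rose by 0.92 (SE 0.07).

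The sensors and regulators around the kinase cascade were called higher in 10 of 27 cases (37%), near the share of all genes, and lower in 6 (22.2%), with a median of 0.14 log2. The lower calls numbered 3 without wild type replicate 2 and 3 in the unmoderated fit. The sensor genes themselves split. WSC4 and SLG1 (also called WSC1) fell by 2.56 and 1.04 (SE 0.09 each), whereas MTL1 and WSC3 rose by 1.52 and 1.18 (SE 0.14 and 0.09). Of 10 measured genes known or listed as outputs of Slt2 and Rlm1 and not among the 40, 5 rose and 2 fell, and the unmoderated fit called 3 higher and 3 lower. These were led by PRM10 (1.91 higher, SE 0.14), YNL058C (1.71, SE 0.10), the pseudokinase gene KDX1 (0.96, SE 0.10) and SRL3 (0.68, SE 0.11). SRL3 was not called in the unmoderated fit (adjusted p = 0.0684). PRM10 is also known as a gene induced by mating pheromone, and the strains differ in mating type. Whether mating type has a part in the rise of PRM10 was not tested. PST1, PIR3 and CRH1, known as outputs of the same route, were among the falls given above. CWP1 and SLT2 were among the rises, though the unmoderated fit called neither. Outputs among the 40 genes were not counted as a list, so these examples of falls and rises do not stand for them.

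Regulators of the TIR and DAN genes were called higher in 6 of 10 cases (60%) and lower in 3 (30%). The higher calls numbered 4 without either one of the wild-type arrays and 2 in the unmoderated fit. The anaerobic activator gene UPC2 rose by 0.77 (SE 0.10) and SUT1 by 0.87 (SE 0.12), both without a call in the unmoderated fit (adjusted p = 0.0532 and 0.0651). HAP1, the haem-responsive factor, fell by 1.04 (SE 0.06) and the corepressor gene TUP1 fell by 0.91 (SE 0.10). Of 10 genes of calcineurin and its factor Crz1, 2 rose and 3 fell. Without either one of the wild-type arrays 1 was called higher. CRZ1 rose by 0.51 (SE 0.08), while CMP2, RCN2 and RCN1 fell by 0.70, 0.62 and 0.40 (SE 0.07, 0.08 and 0.13). RCN1 was not called in the unmoderated fit (adjusted p = 0.194), nor without Sen1ΔN replicate 2 (limma adjusted p = 0.106), without wild type replicate 1 (limma adjusted p = 0.174) or with the level trend removed (limma adjusted p = 0.057).

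**Figure D4:**
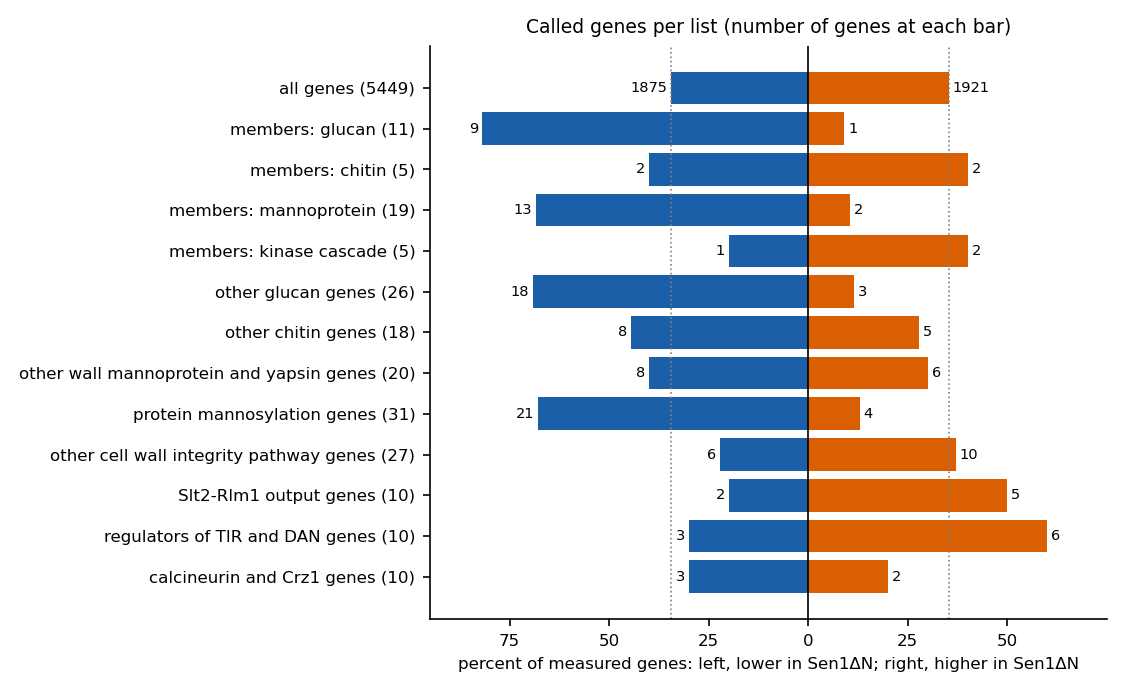
Share of measured genes called lower (bars to the left, percent) or higher (bars to the right, percent) in Sen1ΔN, for all genes, the 4 classes and the 8 additional lists, with the number of called genes at each bar and the number measured in brackets. Dotted lines mark the shares over all genes. The glucan, mannoprotein, other glucan and mannosylation bars extend farthest past the dotted line on the left.

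Signal level and gene length moved with the differences and were set beside them. Of the 40 genes, 22 had a mean of at least 12 log2 over the 4 arrays. Of these 18 were called lower and 2 higher, with a median of -0.47 log2, while of all 931 genes that bright 39.4% were called lower and 29.4% higher, with a median of -0.07. Of the 18 dimmer members, 7 were called lower (38.9%) and 5 higher (27.8%), with a median of -0.16 log2. Those shares stand beside 34.4% and 35.3% of all genes. Removing a smooth trend of the difference on signal level left 25 genes called lower and 7 higher. By length, 19 members lay above 1000 and up to 2000 bp, where the median was -0.44 log2, against -0.12 for all 2134 genes of that length. The 13 shorter members had a median of -0.27, against 0.15 for all 2087 genes up to 1000 bp. The 8 members above 2000 and up to 10000 bp had a median of -0.35, against 0.002 for all 1225 genes of that length. Removing the trend on length left 23 called lower and 8 higher, with a median of -0.26 over the 40 genes, and moved 10 of the 32 called differences by more than 1.5 times. It ended the calls of GAS3 (-0.20), BGL2 (-0.11) and SCW4 (-0.07). It brought the differences of GAS5, EXG1, PIR1, HSP150 and SED1 to between -0.29 and -0.21, still called. The short genes CWP2 and CCW12 went the other way, to -0.78 and -0.40, and CCW12 was then called lower (limma adjusted p = 0.00557). SLT2 moved to 0.52, and MKK1 was called higher at 0.33.

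**Figure D5:**
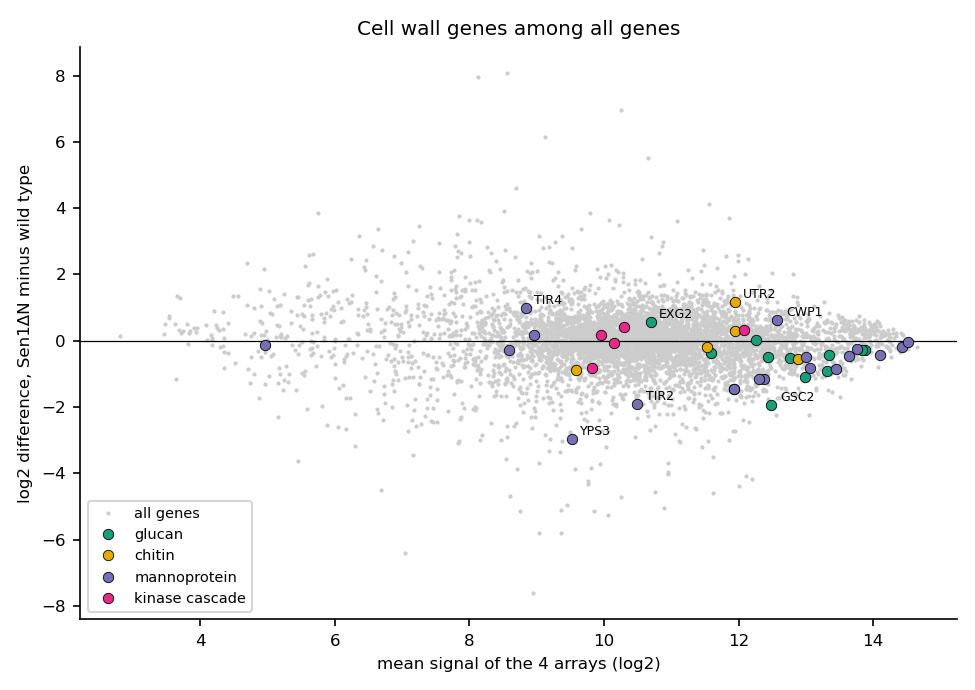
Difference between the strains (y axis, log2, Sen1ΔN minus wild type) against the mean signal of the 4 arrays (x axis, log2) for all 5449 genes in grey and the 40 cell wall genes in the colours of their classes. Of the 22 cell wall genes at or right of 12 log2, 18 were called lower, and YPS3, TIR2 and GSC2 are the lowest of the 40.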

How the data were processed

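The values were deposited by the authors as log2 signals of single probe sets. They were made with RMA in Affymetrix Expression Console, both named without versions, per the submitters' processing notes. RMA, by its published design, sets arrays to a common distribution, which hides a change in total mRNA. Whether the arrays of both strains were normalized together is not stated. The highest value was 14.56 and 14.57 log2 on the Sen1ΔN arrays and 14.74 on each wild-type array. Of 10928 probe sets, 5498 carried 1 S. cerevisiae gene in the platform annotation, and they were averaged to 5449 genes. Names were updated for 12 probe sets, and R64 supplied names, gene spans and gene order only. The 95th percentile of 1746 S. pombe probe sets was taken as each array's background level. Genes were fitted on strain alone with limma 3.58.1 (eBayes) in R 4.3.3, two-sided, with Benjamini-Hochberg adjustment over 5449 genes and 2 residual degrees of freedom, after tests on simulated data. The test rests on 2 arrays per strain. The limma p-values and SE rest on the spread between 2 cultures of each strain and, through moderation, on that of all genes. The moderation added 2.76 prior degrees of freedom. An exact permutation test of 2 against 2 arrays cannot go below 0.33. The number of arrays limits the precision. The 40 members and the 8 lists were chosen with earlier results of these data known. All members are named, and of each list up to 4 called genes with the largest differences whose arrays did not overlap. CRH1 and UTR2 were placed with chitin and the yapsins with the mannoproteins. The result was recomputed with the replicate number as a block, without each array in turn, after quantile normalization or median centring, without dim genes (under 2 arrays above background), with eBayes set to trend and robust, without moderation, from the brightest probe set, and after subtracting a loess curve (span 0.5, degree 1) on log2 gene length. Subtracting such a curve on mean signal was chosen after seeing the data. A further list of genes is not reported here. No sequences are shown, as none were used here.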

Additional observations from a re-analysis of the deposited data

How the results depend on the processing

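No called difference among the 40 genes changed sign under any of the 13 alternatives. Of the 32 called genes, 21 were called under all of them and 11 lost the call under at least 1, and of the 8 others 4 were called under at least 1. Leaving out each array in turn gave 20 to 25 genes called lower and 4 to 9 higher. By class it gave 6 to 9 glucan genes called lower, and 1 to 2 chitin genes, 1 to 3 mannoprotein genes and 1 to 3 cascade genes called higher, and the median difference ran from -0.44 to -0.34. The lowest counts came without wild type replicate 2. The unmoderated model called 1209 of all genes higher and 1236 lower, against 1921 and 1875. Among the 40 genes it called 5 higher and 20 lower, against 7 and 25, with 7 glucan and 11 mannoprotein genes lower. It called 24 rather than 40 genes of the additional lists higher, 7 rather than 18 other glucan genes lower, 1 chitin gene lower, 1 mannoprotein gene higher and 1 cascade gene higher. The replicate block left 23 members lower and 6 higher, and 1 mannoprotein gene higher. It ended the calls of CWP1, CWP2 and CCW14 (limma adjusted p = 0.0751, 0.0705 and 0.0614) and changed no other call of a member. The deviations of same-numbered arrays from their strain means correlated at -0.034 across genes, so the numbers were not taken as pairs. The median difference of the 40 genes was -0.31 after quantile normalization, -0.42 without the dim genes, -0.26 with the length trend removed and -0.33 with the level trend removed. Signals near background (DAN1) or near the top of the scale (CCW12, CWP2) limit what these arrays can show. The 3′ minus 5′ shift of the control transcripts, with a median of 2.38 log2, is a further limit. It follows strain, each of the 40 genes rests on 1 probe set, and the part of the shift in their differences was not tested.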
